A study of Homo sapiens with 12 samples.

Results

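The pregnancy-specific glycoprotein (PSG) genes were followed on expression arrays in U-87 MG, an established cell line from a human glioma. The family comprised 9 genes (PSG1, PSG2, PSG3, PSG4, PSG5, PSG6, PSG7, PSG9 and PSG11) of the 19775 genes measured. It was chosen by symbol, and the choice of this family was made from measured values of these same arrays. The values of its members are therefore given as a description, without p-values.

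U-87 MG cells had been stably transfected with a short hairpin RNA against p105 (shp105) or with a control hairpin (shControl). p105 is encoded by NFKB1 and is cut down to p50, a subunit of NF-kB. Each line received 100 uM temozolomide (TMZ), a DNA-methylating drug used against glioma, or its vehicle DMSO for 16 h, and the series asks how cells with intact or reduced NF-kB respond to TMZ. The 4 groups were shControl cells in DMSO, shControl cells in TMZ, shp105 cells in DMSO and shp105 cells in TMZ, with 3 arrays each, so n = 3 stands behind every group mean. All cells carried a stably transfected hairpin, and untransfected cells were not analysed here. The labels do not say whether a line was a clone or a pool, name no hairpin promoter, and call the replicates biological without saying whether they came from separate cultures. The p-values given for other genes thus measure only the spread between these samples.

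PSG proteins are secreted glycoproteins of the immunoglobulin superfamily and relatives of the CEACAM cell adhesion proteins. The syncytiotrophoblast of the placenta is their main source, and they circulate in maternal blood through pregnancy. PSG1 is known to bind integrins and heparan sulfate proteoglycans and, like PSG9, to activate latent TGF-beta, a cytokine that restrains immune cells. The genes lie side by side on chromosome 19 and are so alike in sequence that short array probes can read more than the member they are named for.

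The likeness reaches into the promoters. RefSeq windows (GRCh38.p14) were at hand for 3 of the 9 genes: PSG4, whose level differed between the lines, PSG5, whose probe sets disagreed, and PSG3, which stayed at background. The 250 bases before each start site are shown 5′ to 3′, with the longest run common to all 3 in capitals.
PSG3, chr19:42740482-42740731, minus strand: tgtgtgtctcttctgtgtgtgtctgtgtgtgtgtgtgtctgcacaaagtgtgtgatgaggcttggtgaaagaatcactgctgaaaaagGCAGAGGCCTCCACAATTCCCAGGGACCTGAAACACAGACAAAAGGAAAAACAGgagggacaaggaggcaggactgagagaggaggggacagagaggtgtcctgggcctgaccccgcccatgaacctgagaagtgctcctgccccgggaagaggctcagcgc
PSG4, chr19:43205639-43205888, minus strand: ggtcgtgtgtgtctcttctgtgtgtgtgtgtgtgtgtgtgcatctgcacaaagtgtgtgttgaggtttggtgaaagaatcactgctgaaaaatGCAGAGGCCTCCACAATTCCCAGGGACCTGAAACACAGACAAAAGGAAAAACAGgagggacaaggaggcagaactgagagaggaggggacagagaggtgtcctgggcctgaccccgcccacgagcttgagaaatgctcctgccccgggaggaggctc
PSG5, chr19:43186537-43186786, minus strand: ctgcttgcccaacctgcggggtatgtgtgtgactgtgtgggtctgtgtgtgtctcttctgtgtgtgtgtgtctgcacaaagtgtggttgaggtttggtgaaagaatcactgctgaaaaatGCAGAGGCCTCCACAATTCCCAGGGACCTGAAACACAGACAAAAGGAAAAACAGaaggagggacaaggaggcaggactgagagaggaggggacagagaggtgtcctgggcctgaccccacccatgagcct
The run in capitals is 54 bases long. Among all 35116 promoter windows of the same length it occurred in these 3 alone (0.00854%). PSG3 and PSG4 were identical at 95.1% of 245 aligned bases, with 10 bases against gaps. PSG3 and PSG5 were identical at 96.3% of 214, with 72 bases against gaps, and PSG5 and PSG4 at 208 of 219, with 62. Both strands were searched for short motifs, which may overlap each other. CACCC, the core of the boxes that KLF factors bind, occurred in PSG5 alone of the 3 and in 54.7% of all windows. CCGCCC, an SP1-type box, occurred in PSG3 and PSG4 and in 42.6% of all windows. Both motifs lie at the same place of the 3 windows, where PSG5 has A for the G of PSG3 and PSG4. TATAAA (10.7% of all windows), CCAAT (32.0%) and the kB consensus (9.96%) did not occur in these 3 windows, which says nothing of sites elsewhere.

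Levels are the deposited log2 values, on which a step of 1 is a doubling of the array signal. The family was read by 16 probe sets with a single gene symbol and by 3 more that carry 2 PSG symbols. Of the 16, 11 have the suffix _x_at, by which Affymetrix marks probes near-identical to other sequences, 3 have _s_at, shared by several transcripts, and 2 have plain _at. Where a gene had several probe sets, the one with the highest mean over the 12 arrays stood for it. Background was judged by 27 probe sets for sequences that the cells lack, which read between 2.33 and 4.30. A value above 4.30 does not by itself show that a gene is expressed: CD3E, a leukocyte marker, had group means of 5.63 to 5.87. In shControl cells in DMSO and TMZ, PSG6 had means of 5.74 and 5.83 and PSG9 of 5.84 and 5.91. Whether these 2 genes are expressed in shControl cells was not tested. The number of arrays limits the precision of all values. Levels of different probe sets are not on a common scale, so groups were ordered within each gene only. NFKB1, the targeted gene, had group means of 7.32, 7.41, 7.20 and 7.16 in shControl cells in DMSO and TMZ and shp105 cells in DMSO and TMZ. It was lower in shp105 cells by 0.25 in TMZ (-0.25, SE 0.07, adjusted p = 0.0204) but not called in DMSO (-0.12, SE 0.07, adjusted p = 0.260).

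**Figure D1:**
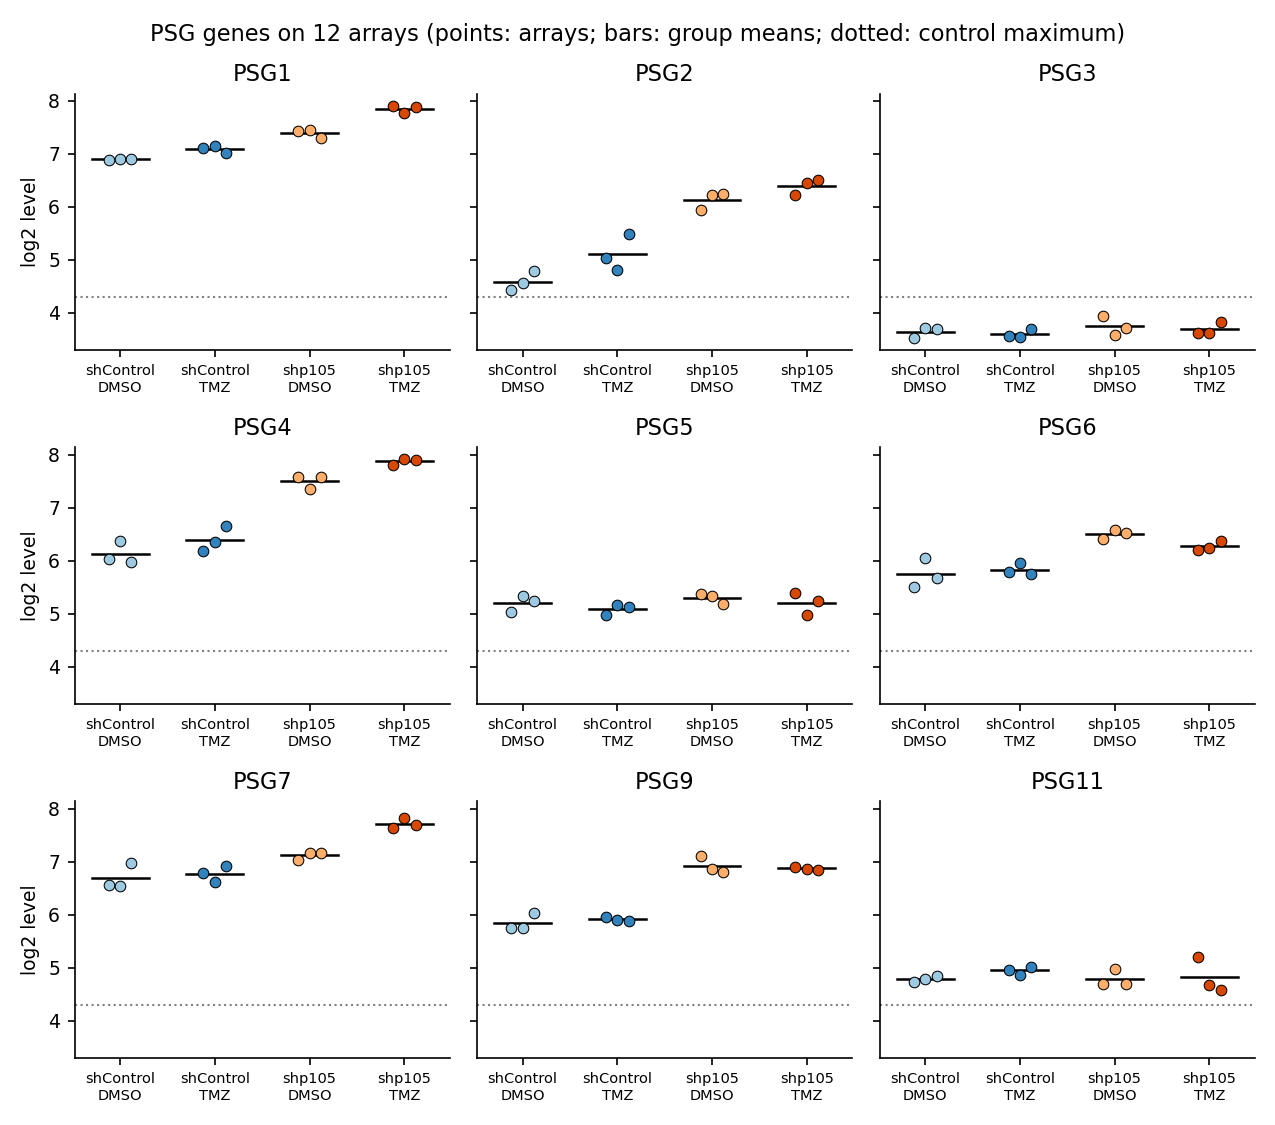
Log2 level of each PSG gene (vertical axis) on the 12 arrays by group (horizontal axis), with points for arrays, bars for group means and a dotted line at 4.30, the highest value of the control probe sets. The shp105 points lie above the shControl points for PSG1, PSG2, PSG4, PSG6, PSG7 and PSG9, while PSG3 stays under the dotted line and the lines overlap for PSG5 and PSG11.

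Of the 9 genes, PSG2, PSG4 and PSG9 differed most between the lines. For PSG2 the levels were 4.42, 4.56 and 4.78 in shControl cells in DMSO and 5.03, 4.81 and 5.49 in TMZ. In shp105 cells they were 5.94, 6.22 and 6.24 in DMSO and 6.22, 6.44 and 6.50 in TMZ. Every shp105 array was above every shControl array, and within shp105 cells the DMSO and TMZ ranges met. The difference between the lines, shp105 minus shControl, was 1.55 log2 units in DMSO (standard error, SE, 0.16), a 2.92-fold higher signal, and 1.28 (SE 0.16) in TMZ, 2.42-fold. The shControl arrays in DMSO lay just above the control maximum of 4.30, which limits the fold in DMSO.

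PSG4 (chr19:43192702-43205638) read 6.04, 6.37 and 5.98 in shControl cells in DMSO and 6.19, 6.35 and 6.64 in TMZ. The shp105 arrays read 7.57, 7.35 and 7.57 in DMSO and 7.81, 7.91 and 7.90 in TMZ. The shControl groups overlapped, and the other steps in the order shControl, shp105 in DMSO, shp105 in TMZ were free of overlap. The lines differed by 1.37 (SE 0.12) in DMSO and 1.48 (SE 0.12) in TMZ, or 2.58-fold and 2.78-fold.

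For PSG9, one of the members known to activate TGF-beta, the shControl arrays read 5.74, 5.75 and 6.04 in DMSO and 5.95, 5.89 and 5.89 in TMZ. The shp105 arrays read 7.10, 6.86 and 6.81 in DMSO and 6.90, 6.87 and 6.85 in TMZ. The lines were apart by 1.08 (SE 0.09) in DMSO and 0.96 (SE 0.09) in TMZ. Within either line the DMSO and TMZ ranges overlapped, so for PSG9 the separation lay between the lines.

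PSG1, the member for which integrin and TGF-beta activities are best described, had 4 separate groups. It read 6.89, 6.90 and 6.90 in shControl cells in DMSO, 7.11, 7.14 and 7.01 in shControl cells in TMZ, 7.43, 7.45 and 7.29 in shp105 cells in DMSO and 7.90, 7.76 and 7.87 in shp105 cells in TMZ. The 4 groups followed each other in that order without overlap at any step. The line difference was 0.49 (SE 0.06) in DMSO and 0.76 (SE 0.06) in TMZ, 1.41-fold and 1.69-fold.

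PSG7 had the same order of group means. Its arrays read 6.55, 6.55 and 6.97 in shControl cells in DMSO, 6.78, 6.62 and 6.91 in shControl cells in TMZ, 7.03, 7.16 and 7.16 in shp105 cells in DMSO and 7.63, 7.83 and 7.69 in shp105 cells in TMZ. The shControl groups overlapped, and all other steps were free of overlap. The line difference was 0.43 (SE 0.11) in DMSO and 0.95 (SE 0.11) in TMZ.

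PSG6 also differed between the lines. It read 5.50, 6.05 and 5.68 in shControl cells in DMSO, 5.79, 5.95 and 5.75 in shControl cells in TMZ, 6.41, 6.58 and 6.52 in shp105 cells in DMSO and 6.21, 6.25 and 6.38 in shp105 cells in TMZ. The lines did not overlap under either treatment, at a difference of 0.76 (SE 0.12) in DMSO and 0.45 (SE 0.12) in TMZ.

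PSG3, PSG5 and PSG11 showed no separation of the lines under either treatment. PSG3 lay between 3.52 and 3.94 on all 12 arrays, within the range of the control probe sets, so no fold was taken. PSG5 ranged from 4.97 to 5.39 and differed between the lines by 0.09 (SE 0.11) in DMSO and 0.11 (SE 0.11) in TMZ. PSG11 ranged from 4.57 to 5.20, with differences of -0.01 (SE 0.14) and -0.13 (SE 0.14). Every neighbouring pair of groups in the order of means overlapped for these 3 genes, although the shControl arrays of PSG11 in DMSO (up to 4.85) lay just below those in TMZ (from 4.87).

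Counted over the family, 6 of 9 members (PSG1, PSG2, PSG4, PSG6, PSG7 and PSG9) had an adjusted p under 0.05 in limma's test and were higher in shp105 cells in DMSO, and none was lower. Over all genes 8.34% were called higher and 11.6% lower in that comparison. In TMZ the same 6 genes were called higher and none lower, beside 10.1% and 11% of all genes. The median difference of the 9 members was 0.49 in DMSO and 0.76 in TMZ, and that of all genes -0.01 in both. The groups did not overlap, with shp105 higher, for 6 of 9 members in each comparison, beside 15.1% of all genes in DMSO and 17.2% in TMZ. Since the family was selected on these arrays, nothing is read from these counts. In bulk RNA a change in the share of cells that express a gene and a change in RNA per cell cannot be told apart.

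The level of an array's hybridization spike-ins, labelled RNAs added to the hybridization mix in fixed amount, moved with the groups. Their mean over 18 probe sets was 10.63 (SD 0.05) in shControl cells in DMSO and 10.95 (SD 0.09) in TMZ. In shp105 cells it was 11.13 (SD 0.10) in DMSO and 11.32 (SD 0.13) in TMZ. That is also the order of the group means of PSG1, PSG2, PSG4 and PSG7, but not of PSG6 and PSG9. For GAPDH, the log2 excess of the 3′ over the 5′ probe set, which grows as RNA degrades, followed the same order with means of 0.25, 0.30, 0.36 and 0.40. With a covariate for the spike-ins the line differences in DMSO stayed positive for the 6 genes, at 1.85 for PSG2, 1.18 (SE 0.30) for PSG4, 1.13 (SE 0.27) for PSG6, 0.96 for PSG9, 0.57 (SE 0.15) for PSG1 and 0.49 (SE 0.28) for PSG7. Only PSG2 and PSG9 kept their call in DMSO under that fit, and all but PSG6 (0.72, SE 0.21) kept it in TMZ. As the spike-ins moved with the groups, the covariate widened the SE in DMSO, from 0.06 to 0.15 for PSG1 and from 0.12 to 0.30 for PSG4. A lost call can therefore not be told apart from lost precision. The share of all genes that kept a call under that fit was not taken. The call of PSG7 in DMSO was also lost without shp105 replicate 2 or 3 in DMSO, or without shControl replicate 1 or 2 in DMSO (0.35 to 0.41). That of PSG6 in TMZ was lost without shp105 replicate 3 or shControl replicate 1 or 3 in TMZ (0.40 to 0.43).

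The probe sets of a gene were compared because members can read each other's RNA. Over probe sets, 10 of 16 were called higher in shp105 cells in DMSO and 10 of 16 in TMZ, beside 6.44% and 7.4% of all single-symbol probe sets. By suffix, these were 9 of 11 _x_at, 1 of 3 _s_at and 0 of 2 plain _at probe sets under either treatment. The called _s_at probe set was 210195_s_at in DMSO and 210196_s_at in TMZ, the latter with all its values in the control range. Of the 16 probe sets 11 were _x_at to begin with, and the shares called by suffix over all probe sets were not taken. Nothing is therefore read from the counts by suffix.

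**Figure D2:**
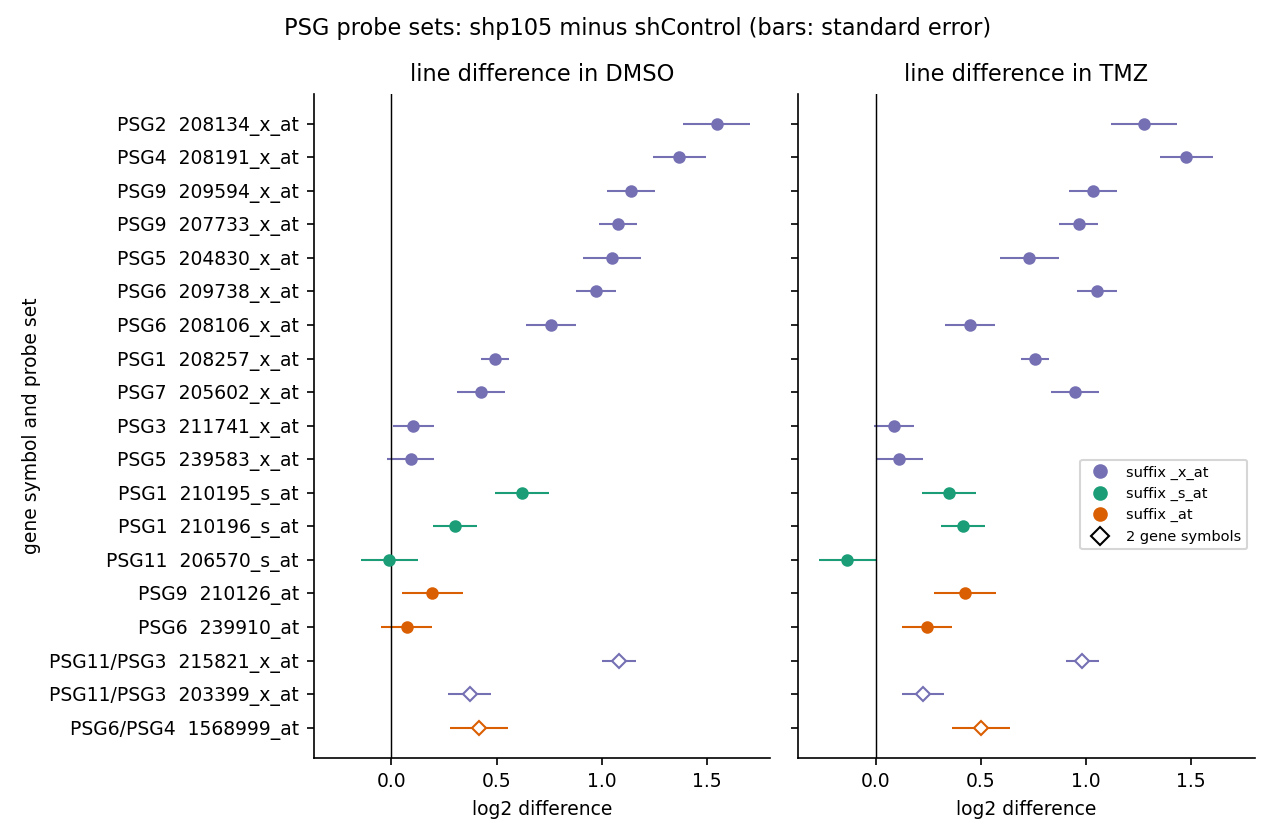
Log2 difference, shp105 minus shControl, with its standard error (horizontal axis) for each of the 19 PSG probe sets (vertical axis), in DMSO on the left and TMZ on the right. Filled points have 1 gene symbol and open diamonds 2. The 2 plain _at probe sets with 1 symbol (orange points) lie at 0.20 and 0.07 in DMSO, while 209594_x_at and 207733_x_at of PSG9 lie at 1.14 and 1.08.

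PSG9 had both _x_at and plain _at probe sets. Its second _x_at probe set, 209594_x_at, differed between the lines by 1.14 (SE 0.11) in DMSO and 1.03 (SE 0.11) in TMZ, close to 207733_x_at. Its plain probe set, 210126_at, read 5.56, 5.66 and 5.41 in shControl cells and 5.69, 5.78 and 5.74 in shp105 cells in DMSO. In TMZ it read 5.26, 5.25 and 5.24 in shControl cells and 5.38, 5.54 and 6.11 in shp105 cells. The lines did not overlap under either treatment, yet the differences were 0.20 (SE 0.15) and 0.42 (SE 0.15), which were not called.

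PSG6 had a second _x_at probe set, 209738_x_at, at 0.97 (SE 0.09) in DMSO and 1.05 (SE 0.09) in TMZ. Its plain probe set 239910_at read between 3.90 and 4.44 over the 12 arrays, at or near the control range, and the lines overlapped under either treatment. For PSG5 the choice of probe set decided the picture. The probe set 204830_x_at read 4.76, 4.59 and 4.45 in shControl cells and 5.66, 5.55 and 5.74 in shp105 cells in DMSO, a difference of 1.05 (SE 0.14). In TMZ it read 4.80, 4.90 and 4.72 against 5.29, 5.92 and 5.42, a difference of 0.73 (SE 0.14), while 239583_x_at, which stood for the gene, showed no separation. With probe sets averaged per gene, PSG5 was called higher in shp105 cells at 0.57 in DMSO and 0.42 in TMZ.

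The other probe sets of PSG1 were both higher in shp105 cells on average, 210195_s_at by 0.62 (SE 0.13) in DMSO and 0.35 (SE 0.13) in TMZ. The probe set 210196_s_at differed by 0.30 (SE 0.11) and 0.41 (SE 0.11), with all its values in the control range. Of the probe sets named for 2 genes, 215821_x_at (PSG11 and PSG3) went from 5.77, 5.97 and 5.88 in shControl cells to 6.97, 6.94 and 6.95 in shp105 cells in DMSO. That difference of 1.08 (SE 0.08), and of 0.98 (SE 0.08) in TMZ, stood beside -0.01 in DMSO for the single-symbol probe set of PSG11. The single-symbol probe set of PSG3 stayed in the control range in both lines. It thus showed no rise above that range, and a change within it cannot be sized. A further probe set named for PSG11 and PSG3, 203399_x_at, had all its values in the control range. It differed by 0.37 (SE 0.10) in DMSO, where it was called higher, and by 0.22 (SE 0.10) in TMZ, where it was not called. The plain probe set named for PSG6 and PSG4, 1568999_at, differed by 0.42 (SE 0.14) in DMSO, where the lines did not overlap and it was not called. In TMZ it differed by 0.50 (SE 0.14), where the lines overlapped and it was called higher. How much of each value came from RNA of another member was not tested, as probe sequences were not used here.

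TMZ was compared with DMSO within each line. In shControl cells no member was called higher or lower, beside 0.253% and 0.116% of all genes, and 2 (PSG1 and PSG2) had an unadjusted limma p under 0.05, as did 2180 genes in all. TMZ arrays lay above DMSO arrays without overlap for 3 of 9 members, PSG1, PSG2 and PSG11, beside 9.21% of all genes. PSG2 differed by 0.52 (SE 0.16), PSG1 by 0.19 (SE 0.06) and PSG11 by 0.16 (SE 0.14). The median over the 9 members was 0.09, and that of all genes -0.0031.

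In shp105 cells PSG7 and PSG1 were called higher after TMZ, 2 of 9 members, and none lower, beside 0.647% and 0.217% of all genes. PSG7 differed by 0.60 (SE 0.11), a 1.51-fold higher signal, and PSG1 by 0.45 (SE 0.06), 1.37-fold. PSG4 also separated without overlap, at 0.37 (SE 0.12), making 3 of 9 members, beside 12.5% of all genes. For 1 of 9 members, PSG6, all TMZ arrays lay below the DMSO arrays, beside 7.86% of all genes. Its value of -0.23 (SE 0.12) was not called, and its probe sets 209738_x_at (-0.08) and 239910_at (0.14) overlapped. PSG9 at -0.05 (SE 0.09), PSG2 at 0.25 (SE 0.16), and PSG3, PSG5 and PSG11, between -0.09 and 0.03, overlapped.

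Both calls changed with single arrays or settings. The PSG7 call was lost when any array of shp105 cells, or shControl replicate 1 in TMZ, was left out (0.54 to 0.64), and both were lost when spike-ins entered as a covariate (0.63 for PSG7, SE 0.16, and 0.48 for PSG1, SE 0.08). The other PSG1 probe sets did not show the response to this extent: 210195_s_at read 6.25, 6.31 and 6.32 in DMSO and 6.12, 6.34 and 6.17 in TMZ, a difference of -0.080, and 210196_s_at differed by 0.16.

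**Figure D3:**
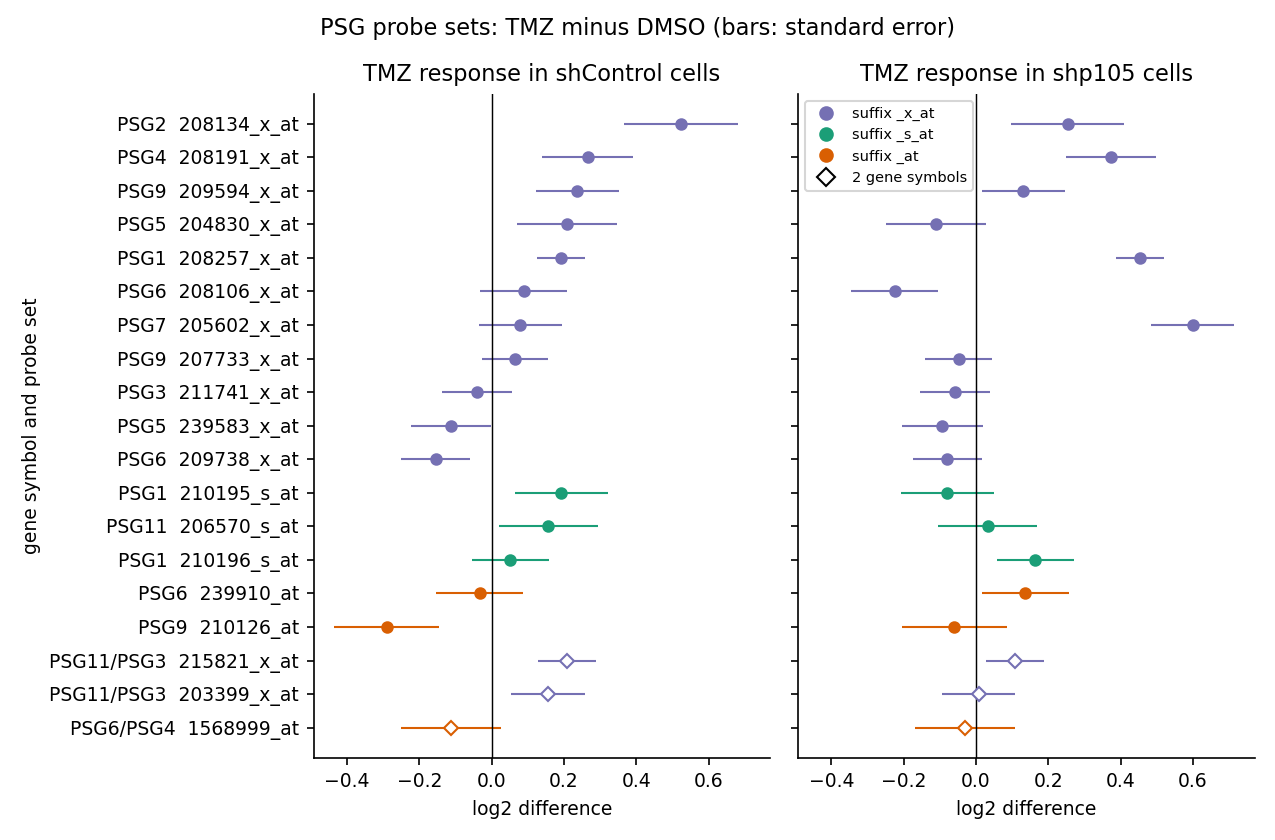
Log2 difference, TMZ minus DMSO, with its standard error (horizontal axis) for each of the 19 PSG probe sets (vertical axis), in shControl cells on the left and shp105 cells on the right, with filled points for 1 gene symbol and open diamonds for 2. PSG7 at 0.60 and PSG1 at 0.45 lie farthest to the right in shp105 cells, and PSG2 at 0.52 does so in shControl cells.

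The difference of both TMZ responses was tested in the same fit. No member was called, nor any of the 19775 genes (0%), by limma, while 1266 genes had an unadjusted p under 0.05, PSG1 and PSG7 among them. The estimates, the response in shp105 cells minus that in shControl cells, were 0.52 (SE 0.16) for PSG7, 0.26 (SE 0.09) for PSG1, -0.31 (SE 0.17) for PSG6 and -0.27 (SE 0.22) for PSG2. The line comparisons and the TMZ comparisons share arrays, so their values are not independent of each other.

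The genes span chr19:42721642-43269530 (GRCh38.p14), 547.889 kb, in the order PSG3, PSG1, PSG6, PSG7, PSG11, PSG2, PSG5, PSG4 and PSG9. RefSeq places 11 PSG genes there. PSG8 and PSG10P, between PSG3 and PSG1, had no single-symbol probe set, and no gene outside the family was measured inside the span. The members higher in shp105 cells were spread over the cluster, from PSG1 near one end to PSG9 at the other, with PSG11 and PSG5 between them.

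**Figure D4:**
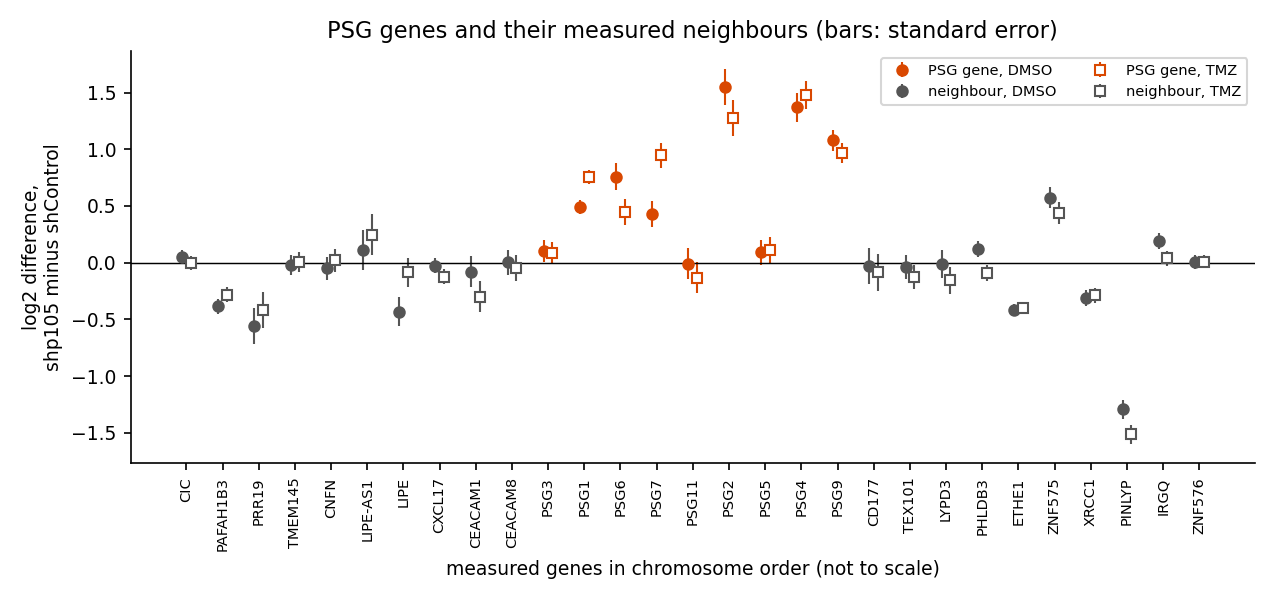
Log2 difference, shp105 minus shControl, with its standard error (vertical axis) for the 9 PSG genes and the 10 nearest measured genes on each side, in chromosome order and not to scale (horizontal axis), with filled points for DMSO and open squares for TMZ. PSG2 and PSG4 stand highest, and PINLYP lowest at -1.29 in DMSO and -1.51 in TMZ.

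Of the 20 nearest measured genes, 1 was higher and 6 were lower in shp105 cells in DMSO, beside 8.34% and 11.6% of all genes. In TMZ 1 was higher and 4 were lower, beside 10.1% and 11% of all genes. Medians of the 20 were -0.03 in DMSO and -0.09 in TMZ. ZNF575, a zinc finger gene, was higher by 0.57 (SE 0.09, adjusted p = 0.000973) in DMSO and 0.44 (SE 0.09, adjusted p = 0.00551) in TMZ. PINLYP was lower by 1.29 log2 units in DMSO (-1.29, SE 0.09, adjusted p = 6.55e-07) and ETHE1, a mitochondrial sulfur dioxygenase, by 0.42 (-0.42, SE 0.05, adjusted p = 7.33e-05). The genes next to the cluster did not pass the test. On the PSG3 side CEACAM8 was at the control level in all groups, and CEACAM1 gave -0.08 (adjusted p = 0.773) in DMSO and -0.30 (adjusted p = 0.158) in TMZ. On the PSG9 side CD177, a neutrophil surface protein, gave -0.03 and -0.08 (adjusted p = 0.938 and 0.784). No neighbour passed in either TMZ response.

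Among the close relatives, 10 of 16 listed CEACAM and related genes were measured. None was called in the 5 comparisons, beside the shares of all genes given above. The smallest adjusted p in DMSO belonged to CEACAM21, at 0.22 (SE 0.07, adjusted p = 0.0529), and in TMZ to CEACAM6, at -0.19 (SE 0.07, adjusted p = 0.0611). Medians of the list were 0.03 in DMSO and -0.04 in TMZ.

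Binding partners of PSG proteins and genes of the TGF-beta axis changed in both directions. Of 26 measured of 27 listed, 5 rose and 6 fell in shp105 cells in DMSO, beside 8.34% and 11.6% of all genes. In TMZ 3 rose and 5 fell, beside 10.1% and 11% of all genes. The median of the 26 was 0.00 in both. TGFBI, a matrix protein induced by TGF-beta, read 12.69, 12.73 and 12.70 in shControl cells and 13.47, 13.48 and 13.47 in shp105 cells in DMSO, a rise of 0.77 (SE 0.05, adjusted p = 2.94e-07). ITGB1, the beta subunit of the integrin that PSG1 is known to bind, rose by 0.47 (SE 0.05, adjusted p = 2.99e-05). LTBP1, which holds latent TGF-beta in the matrix, changed by -0.53 (SE 0.07, adjusted p = 0.000117), and IL6, an inflammatory cytokine that PSG proteins are reported to induce in monocytes, by -1.27 (SE 0.10, adjusted p = 3.53e-06). In TMZ the same 4 genes gave 0.62 for TGFBI, 0.48 for ITGB1, -0.59 for LTBP1 and -1.02 for IL6, all with an adjusted p under 0.05. None of the 26 passed in either TMZ response.

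Of 10 factors reported at PSG promoters, 2 rose in shp105 cells in DMSO and none fell, beside 8.34% and 11.6% of all genes. In TMZ 2 rose and 1 fell, beside 10.1% and 11% of all genes. Medians of the 10 were 0.05 in DMSO and 0.07 in TMZ. RXRA, a nuclear receptor that partners retinoic acid receptors, read 6.64, 6.57 and 6.64 in shControl cells and 7.33, 7.44 and 7.38 in shp105 cells in DMSO. It rose by 0.77 (SE 0.06, adjusted p = 1.93e-06) in DMSO and 0.75 (adjusted p = 2.37e-06) in TMZ. KLF4, a zinc finger factor, rose by 0.61 (SE 0.06, adjusted p = 1.52e-05) and 0.36 (adjusted p = 0.000908). KLF6, of the same family, changed by -0.23 (SE 0.06, adjusted p = 0.0184) in TMZ. Under TMZ itself KLF4 changed by -0.31 (SE 0.06, adjusted p = 0.0338) in shp105 cells. Whether any of these factors acted on the PSG genes here was not tested.

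Trophoblast genes outside the family were followed as markers. Of 24 trophoblast genes measured of 27 listed, 1 rose and 2 fell in shp105 cells in DMSO, and 1 rose and 4 fell in TMZ, with medians of -0.01 in both, beside the shares of all genes given above (8.34% higher and 11.6% lower in DMSO, 10.1% and 11% in TMZ). Of the 24, 8 (CGA, CSH1, HSD3B1, GCM1, ERVFRD-1, INSL4, LGALS13 and LGALS14) stayed in the control range in all 4 groups, and the others had at least 1 array above it, among them GH2, PGF and HLA-G (group means of 5.30 to 5.43, 7.77 to 7.89 and 10.1 to 10.3). The summed log2 level of the 24 genes ranged from 131.5 to 132.4 in shControl cells in DMSO, 130.8 to 131.7 in shControl cells in TMZ, 130.1 to 130.4 in shp105 cells in DMSO and 128.0 to 130.7 in shp105 cells in TMZ. PLAC1 alone differed by -1.67 in DMSO, and the shp105 ranges overlapped each other.

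KRT7, a keratin of trophoblast and other simple epithelia, rose by 0.56 (SE 0.08, adjusted p = 0.000468) in DMSO and 1.30 (SE 0.08, adjusted p = 5.11e-07) in TMZ. PLAC1, a placenta-enriched gene also active in tumours, read 7.72, 7.58 and 7.64 in shControl cells and 6.10, 5.95 and 5.87 in shp105 cells in DMSO, a change of -1.67 (SE 0.07, adjusted p = 2.35e-08), and -1.72 (SE 0.07) in TMZ. PAPPA, a protease that frees insulin-like growth factors, changed by -0.31 (SE 0.06, adjusted p = 0.00449) and -0.46 (SE 0.06, adjusted p = 0.000274). ELF5, a trophoblast stem cell factor, was called lower in TMZ (adjusted p = 0.000414), with 5.02, 5.11 and 4.78 in shControl cells. Its shp105 arrays in TMZ lay in the control range, so the size of that difference is not given.

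Markers of a mesenchymal glioma line were checked next. All 7 lay above the control range in every group, with NES nearest to it (shControl means of 4.92 in DMSO and 4.95 in TMZ, lowest array 4.45). Of them CAV1 rose and CD44 and FN1 fell in shp105 cells under either treatment (0.41, -0.25 and -0.41 in DMSO). Of 5 glial markers, S100B and AQP4 were in the control range in all groups, and GFAP and SOX2 were above it, with group means of 5.05 to 5.21 and 5.02 to 5.17. OLIG2 was in the control range in shControl cells and had means of 5.27 and 5.38 in shp105 cells in DMSO and TMZ. It was called higher in shp105 cells (adjusted p = 0.000119 in DMSO), with no exact size since the shControl level was at background. Of 4 measured leukocyte markers, PTPRC, CD14 and LYZ were in the control range throughout, CD3E was above it (group means of 5.63 to 5.87), and none was called.

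Likeness to PSG1 was measured by Pearson's r over the 12 arrays among 406 genes whose SD over the arrays was at least 0.5. The group order of PSG1 was also that of the spike-ins and of the GAPDH excess, whose part in these r values was not tested. PSG1 served as the reference because its probe set had the highest mean value, which does not rank it by RNA amount. The arrays fall into the 2 lines, so a pooled r spans the line difference, and r within the 6 arrays of a line is given beside it. LINC00520, a long noncoding RNA, was most alike at r = 0.954 (0.576 within shControl cells and 0.963 within shp105 cells), with group means of 8.22, 8.26, 9.46 and 10.0. SPATS1 followed at 0.954 (0.703 and 0.831). ABCC2, an export pump, NUPR1, a stress-response factor, and CYP3A5, a drug-metabolising enzyme, had an r of 0.945, 0.943 and 0.935. Within shControl cells these 3 genes gave 0.212, 0.385 and 0.272, and within shp105 cells 0.937, 0.829 and 0.866. The most opposite was DUSP6, a phosphatase that acts on ERK, at -0.950 (-0.876 and -0.900), with group means of 10.4, 10.2, 9.27 and 8.92. H2BC12, a histone, at -0.937 (-0.942 and -0.980) and EREG, an EGF-receptor ligand, at -0.933 (-0.877 and -0.728) came next. TENM1 at -0.930 (-0.574 and -0.779) and CDK15 at -0.928 (-0.651 and -0.687) followed.

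Among the members themselves the r with PSG1 was 0.916 for PSG4, 0.913 for PSG7, 0.881 for PSG2, 0.850 for PSG9 and 0.690 for PSG6. It was 0.252 for PSG3, 0.235 for PSG5 and -0.048 for PSG11. Within shp105 cells it was 0.889 for PSG7, 0.814 for PSG4, 0.580 for PSG2, -0.13 for PSG9 and -0.816 for PSG6. Within shControl cells the same genes gave 0.038, 0.366, 0.480, 0.326 and 0.372. The members share the arrays and, by their suffixes, may share probe targets.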

How the data were processed

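Total RNA of 12 U-87 MG samples was biotin-labelled and measured on Affymetrix arrays, per the labels. The values used are log2 levels per probe set as the authors deposited them, made with RMA and Affymetrix Power Tools per the submitters' processing notes. For versions, build and filters, the sources used here give nothing. RMA puts all arrays on a common distribution, and array medians were 5.04 to 5.09. Symbols came from the platform's probe table, updated through RefSeq (GRCh38.p14). Of 54675 probe sets 41097 had 1 symbol, 1801 several and 11777 none, and 54 kept an older symbol. The probe set with the highest mean stood for each of 19775 genes.

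Group means were fitted over all 12 arrays with limma 3.58.1 (lmFit, eBayes) in R 4.3.3, and p-values were 2-sided and Benjamini-Hochberg adjusted over all genes, or over all single-symbol probe sets where these were counted, with calls under 0.05. Errors are the SE of that fit. The fit was tested on simulated data. Python 3.11.15 made the other tables and plots. The members and gene lists were chosen with earlier results of these data known. Named are all PSG genes and probe sets, NFKB1, up to 4 called genes of a list per comparison by smallest p (or the one of smallest p), CEACAM1, CEACAM8 and CD177 as the genes beside the cluster, marker genes set against the control range (GH2, PGF and HLA-G chosen after their values were seen), and the 5 genes most and 5 least like PSG1. Alternatives covered gene summary, filter, scaling, weights, eBayes settings, arrays in the fit, replicate block, spike-in covariate, threshold and each array left out.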

Additional observations from a re-analysis of the deposited data

How the results depend on the processing

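The count of PSG genes called in the TMZ response of shp105 cells was 2. It became 1 with probe sets averaged per gene, 1 with array weights, 1 at an adjusted p under 0.01 and 1 over 16 probe sets, and 0 with the compared groups alone or the spike-in covariate. Leaving out each array in turn gave 1 to 2. The count of 6 for the lines in DMSO became 2 with the spike-in covariate and 10 over 16 probe sets, and 5 to 6 with an array left out. Averaged probe sets added PSG5 to both line comparisons (7 genes each). The count of 6 for the lines in TMZ became 5 with the spike-in covariate, which lost PSG6, 10 over 16 probe sets and 5 to 7 with an array left out, the added gene being PSG11 (-0.32, lower, without shp105 replicate 1 in TMZ). For shControl cells under TMZ and for the difference of responses the counts stayed 0 to 0 with an array left out. PSG1 by 210195_s_at gave -0.080 for the TMZ response in shp105 cells, against 0.45. Trend and robust fitting added PSG4 there (0.37). Median centring and quantile normalization changed no call, but RMA had already put the arrays on a common distribution, so they could alter little. The causes were not tested.

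Same-numbered arrays of different groups deviated together in few pairs (r over 0.1 in 2 of 18, range -0.14 to 0.12, against 4 of 36 with different numbers), so the numbers were not taken as pairs. With the replicate number as a block the counts of calls were 0, 2, 6, 6 and 0, as without it. The compared groups alone were not run for the difference of responses. Leaving out genes below the median level kept PSG1, PSG4, PSG7 and PSG9, all 4 called between the lines under either treatment. That level was a mean over the arrays of both lines, so a higher signal in shp105 cells helped a gene pass. PSG9 had means of 5.84 and 5.91 in shControl cells in DMSO and TMZ, and 6.92 and 6.87 in shp105 cells. For the line comparisons this setting is therefore not an independent check. Signal near the control range limits PSG3, 210196_s_at and 239910_at. Low signal also limits PSG11, and PSG2 and 204830_x_at in shControl cells in DMSO.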
